A study of Mus musculus with 26 samples.

Results

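The dual-specificity phosphatases that act on mitogen-activated protein (MAP) kinases were followed through all RNA libraries of a mouse study of propranolol and melanoma metastasis. The 10 genes, Dusp1, Dusp2, Dusp4, Dusp5, Dusp6, Dusp7, Dusp8, Dusp10, Dusp14 and Dusp16, were taken by symbol from the 55416 genes of the count tables, and all 10 passed the filter on low counts in every comparison. They were chosen with their levels and propranolol changes in these libraries already known, so those values only describe the genes. No p is printed for a member, and where a member is called higher or lower this is a label from the fit of all genes and not a test of the choice.

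All animals were C57BL/6 mice that carried lung metastases after B16F10 cells, a mouse melanoma line, had been put into a vein. Mice either got propranolol, which blocks β-adrenoceptors, or were left untreated. Poly(A) RNA came from whole lung (5 libraries per treatment), from lung monocytes isolated by FACS (4 per treatment) and from lung CD4 T cells isolated on magnetic beads (4 per treatment), 26 libraries in all. The labels give no dose, route or duration of propranolol and no age of the mice, and they do not say that libraries came from separate animals, so p-values measure the spread between libraries, which may be technical.

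MAP kinases (ERK, JNK and p38) are switched on when upstream kinases phosphorylate both a threonine and a tyrosine in their activation loop, and the dual-specificity phosphatases switch them off by removing those phosphates. Many of the phosphatase genes are themselves switched on quickly by the kinases they inactivate, which makes their transcripts part of a negative feedback loop. In T cells and in myeloid cells they are known as genes that respond to antigen receptor and to pathogen signals.

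Promoter sequences were available from RefSeq (build GRCm38.p6, not the GRCm39 of the counts) for 9 of the 10 genes, all but Dusp4. Of these, 4 are shown: Dusp1, Dusp5 and Dusp8 because they carry motifs of stimulus-responsive genes, and Dusp7 because its transcript was the 1 that was lower in treated CD4 T cell libraries. Each is the 250 bases before the annotated start, read 5′ to 3′ on the gene's strand. Capitals mark the full cyclic AMP response element (CRE, TGACGTCA), its shorter core (TGACG, or CGTCA when read on the other strand) and the CArG box of serum response factor.
Dusp1: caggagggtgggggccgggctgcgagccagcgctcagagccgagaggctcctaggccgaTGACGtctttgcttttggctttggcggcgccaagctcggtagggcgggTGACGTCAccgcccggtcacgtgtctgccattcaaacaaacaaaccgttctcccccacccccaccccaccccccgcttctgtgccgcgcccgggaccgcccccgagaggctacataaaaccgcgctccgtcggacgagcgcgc
Dusp5: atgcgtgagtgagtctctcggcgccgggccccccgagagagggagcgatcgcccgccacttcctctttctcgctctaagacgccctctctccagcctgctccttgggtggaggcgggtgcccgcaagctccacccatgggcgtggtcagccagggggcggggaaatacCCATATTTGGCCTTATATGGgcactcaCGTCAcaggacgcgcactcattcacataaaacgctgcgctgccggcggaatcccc
Dusp8: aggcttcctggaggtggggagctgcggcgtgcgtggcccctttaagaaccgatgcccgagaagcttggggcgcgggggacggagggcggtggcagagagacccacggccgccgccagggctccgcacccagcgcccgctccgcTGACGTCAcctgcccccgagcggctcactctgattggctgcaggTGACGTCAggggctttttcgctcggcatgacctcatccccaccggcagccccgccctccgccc
Dusp7: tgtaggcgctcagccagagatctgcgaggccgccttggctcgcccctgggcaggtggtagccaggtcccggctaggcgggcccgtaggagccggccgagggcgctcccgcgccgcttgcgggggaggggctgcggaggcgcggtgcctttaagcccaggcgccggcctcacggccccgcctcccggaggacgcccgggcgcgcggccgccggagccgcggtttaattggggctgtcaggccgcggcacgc
The Dusp1 stretch lies at chr17:26508473-26508722 (minus strand), that of Dusp5 at chr19:53528895-53529144 (plus), that of Dusp8 at chr7:142095285-142095534 (minus) and that of Dusp7 at chr9:106368382-106368631 (plus).

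The Dusp1 promoter held 1 full CRE, whose first base lies 143 bases before the start, and a separate core 191 bases before it. Dusp8 held 2 full CREs, 107 and 63 bases before the start. A full CRE occurred in 1.55% of 32851 mouse promoters of this length and 2 or more occurred in 0.0304%. Dusp5 held adjoining CArG boxes 82 and 72 bases before the start and a CRE core at 55 bases. At least 1 CArG box was present in 1.47% of all promoters, and 2 or more in 0.0183%. Dusp16 held a CRE core (TGACG) 70 bases before its start, and a core on either strand, full CREs included, was present in 17.8% of all promoters. An E-box (CACGTG, the same on both strands), present in 6.02% of all promoters, was found in Dusp1 and Dusp2, in the latter 109 bases before the start. The AP-1 motif TGAGTCA (4.46% of all promoters, both strands) and the TATA motif TATAAA (12.4%, both strands) were in none of the 9. No full CRE, CRE core or CArG box was found in the Dusp2, Dusp6, Dusp7, Dusp10 and Dusp14 stretches. Apart from Dusp7, these transcripts were also higher in treated CD4 libraries, by 1.43-fold to 9.36-fold. These matches are letters in a window and were not tested as binding sites.

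Total counts ran from 29650148 to 47618634 per lung library, from 36277687 to 48306925 per monocyte library and from 17625672 to 42484125 per CD4 library. Values below are CPM, a gene's count relative to the library's total, scaled by TMM, a factor that corrects for differences in RNA composition. TMM was computed within each kind of material, so levels set side by side across materials rest on separate scalings, but the order of the 6 group means was the same on CPM without TMM factors for every member except Dusp8 and Dusp14. The monocyte libraries held endothelial and epithelial RNA (untreated Cdh5 1709 ± 83.8 CPM and Sftpc 2339 ± 51.5 CPM, beside the monocyte gene Csf1r at 466 ± 59.4 CPM, SD, n = 4), and within each treatment libraries 1 and 2 were close to each other, as were 3 and 4. Cd4 stood at 564 ± 4.49 CPM in untreated CD4 libraries and at 524 ± 61.6 CPM in treated ones (SD, n = 4 each), where the melanocyte genes Tyrp1 and Dct were at 0. Igha, the immunoglobulin A heavy chain of plasma cells, stood at 5871 ± 125 CPM and 5129 ± 1409 CPM there, far above Cd4. The libraries are therefore named by their labels. The untreated CD4 libraries were also close to each other, as were treated CD4 libraries 3 and 4. In bulk RNA, fewer cells of a type and less RNA per cell cannot be told apart.

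With propranolol, 9 of 10 members were higher and 1 was lower in CD4 libraries, with a median log2 change of 2.92 against −0.04 over all 16550 genes tested. In monocyte libraries 5 members were higher and 3 lower (median 0.11, all 18236 genes 0.02), and in whole lung 3 were higher and 3 lower (median −0.01, all 18639 genes 0.03). The monocyte counts were 1 higher and 2 lower when the close libraries were summed, and 1 and 1 in 1 fit with the lung libraries. A gene counts as higher or lower when its adjusted p is under 0.05 in edgeR's quasi-likelihood test with Benjamini-Hochberg adjustment over all genes. By that rule 60% of all genes were called in CD4 libraries (30.1% higher, 29.9% lower), 30.5% in monocyte libraries (14.3% higher, 16.1% lower) and 70.8% in lung (35.5% higher, 35.3% lower), and since the members were chosen from these contrasts nothing is read from their share.

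**Figure D1:**
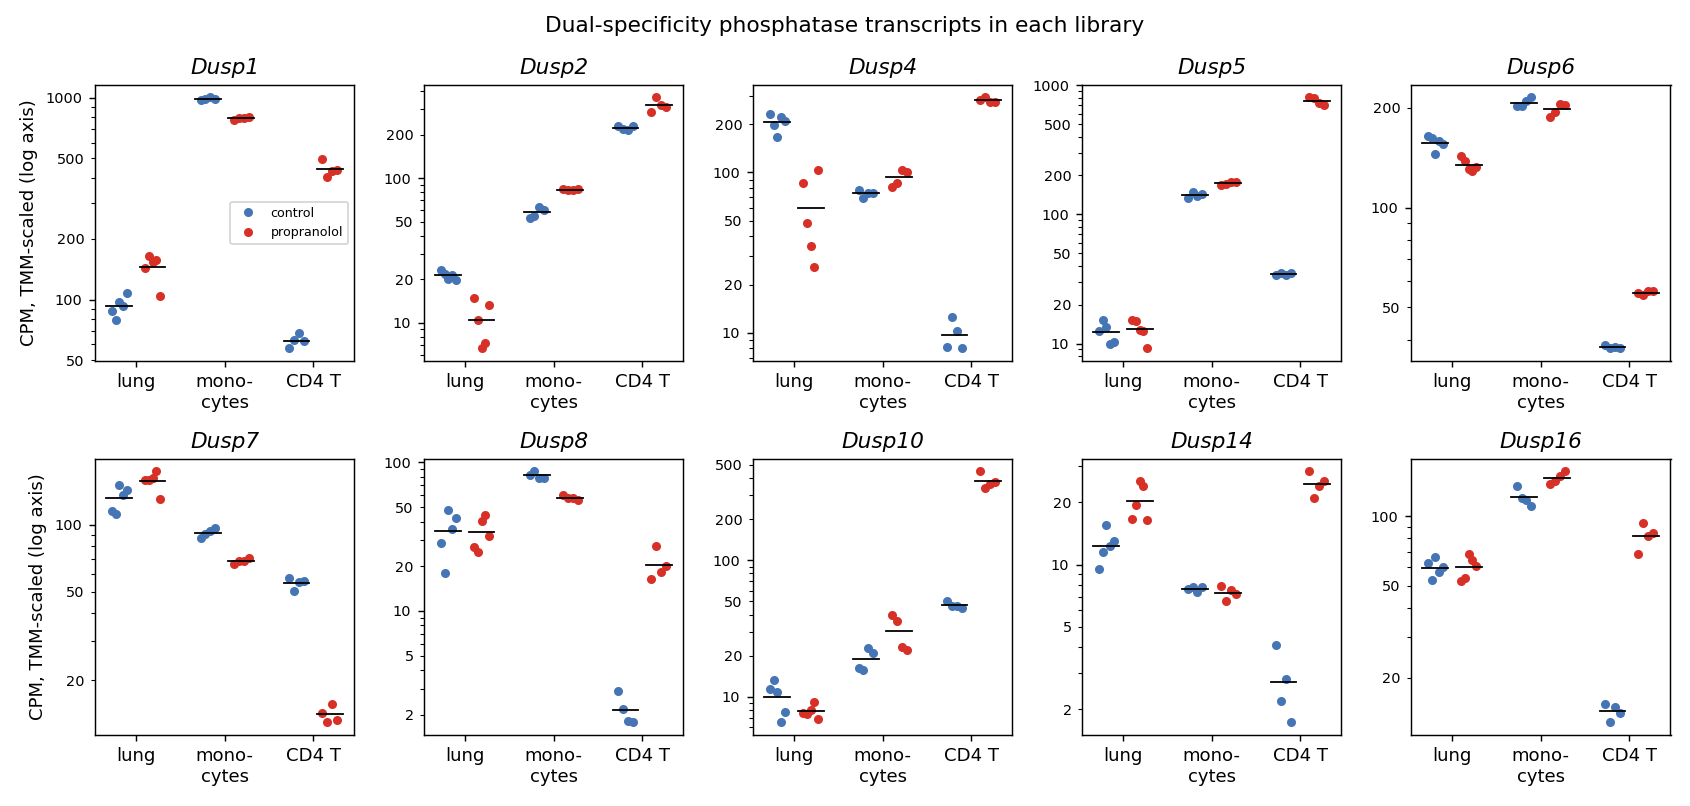
TMM-scaled CPM on a log axis for the 10 phosphatase genes (panels) in whole lung (5 libraries per treatment), libraries labelled monocytes and libraries labelled CD4 T cells (4 per treatment each); every point is 1 library, blue for no treatment and red for propranolol, and bars are group means. In the CD4 libraries Dusp5 stands at 33.8 to 35.1 CPM without treatment and at 706 to 804 CPM with propranolol, while Dusp1 is highest in the monocyte libraries.

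Of the inducible nuclear phosphatases, Dusp1 (ENSMUSG00000024190), which acts on p38, JNK and ERK and whose promoter carries the full CRE shown above, was the most abundant member of the monocyte libraries per exon length. Untreated monocyte libraries held 976, 981, 1003 and 983 CPM and treated ones 777, 798, 794 and 798 CPM. Every treated library lay below every untreated one, and the log2 change was −0.32 ± 0.03 (SE, n = 4 each). Untreated CD4 libraries held 57.3, 62.7, 68.3 and 62.1 CPM and treated ones 495, 405, 431 and 440.2 CPM. There the groups were far apart with propranolol higher, by 7.07-fold (log2 2.82 ± 0.08, SE). In whole lung, untreated libraries held 88.2, 78.8, 97.5, 93.2 and 108 CPM and treated ones 143, 164, 154, 158 and 104 CPM. Of the treated lungs 4 exceeded every untreated lung, while the fifth lay within their range (log2 0.63 ± 0.12, higher). On CPM without TMM factors all 5 treated lungs lay above the untreated ones. From highest to lowest mean, Dusp1 ran from untreated and treated monocytes through treated CD4 cells to treated lung, untreated lung and untreated CD4 cells, and only the lung groups overlapped with their neighbour in that order.

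Dusp2 (ENSMUSG00000027368), a nuclear phosphatase first known from activated lymphocytes, was highest in CD4 libraries. Untreated CD4 libraries held 228, 220, 215 and 228 CPM and treated ones 285, 361, 318 and 312 CPM. All treated libraries were above all untreated ones, but the difference (log2 0.52 ± 0.07) depended on scaling: with library totals as the only scaling it was 0.13, was not called, and the groups overlapped. Monocyte libraries held 53.3, 54.99, 62.98 and 60.1 CPM without treatment and 84.1, 83.01, 82.5 and 83.7 CPM with propranolol. The treated monocyte libraries were nearly equal to each other and all higher (log2 0.53 ± 0.05). Lung libraries held 23.1, 21.6, 20.2, 21.5 and 19.8 CPM without treatment and 14.8, 10.5, 6.64, 7.25 and 13.2 CPM with it. All treated lungs were lower, with a wider spread than the untreated ones (log2 −1.02 ± 0.20). None of the 6 groups overlapped with its neighbour in the order of Dusp2 means, which fell from CD4 through monocyte to lung libraries.

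Dusp4 (ENSMUSG00000031530), a nuclear phosphatase of ERK and JNK, moved in opposite directions in lung and CD4 libraries. Untreated CD4 libraries held 8.18, 12.5, 10.2 and 8.02 CPM and treated ones 285, 293, 274 and 276 CPM. That was 28.8-fold higher (log2 4.85 ± 0.13), the greatest change of any member in any material. Untreated lungs held 231, 199, 166, 222 and 209.9 CPM and treated lungs 86.2, 48.7, 34.97, 25.8 and 104 CPM. Every treated lung was below every untreated one, 3.43-fold lower in the fit (log2 −1.78 ± 0.33), and treated lungs 1 and 5 stood well above lungs 3 and 4. Monocyte libraries held 77.9, 69.7, 74.5 and 74.3 CPM and, with propranolol, 81.7, 86.4, 103 and 101 CPM, a small rise without overlap (log2 0.33 ± 0.07). Among the treated monocyte libraries the close pair 3 and 4 stood above the close pair 1 and 2. In the order of means only untreated monocytes and treated lung were neighbours that overlapped.

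The spread of Dusp4 among treated lungs went with their melanoma RNA. The summed level of 15 melanocyte genes, such as Tyrp1 and Dct, was 30320, 26140, 18820, 24730 and 23760 CPM in the untreated lungs and 9873, 4934, 2446, 1471 and 11290 CPM in the treated ones, and 14 of the 15 genes were lower with propranolol and 1 higher. The treated lungs had the same order for Dusp4 as for the melanocyte sum, from lung 5 down to lung 4. Among the untreated lungs the orders differed. Untreated lung 1 was highest and lung 3 lowest in both, but lung 2 exceeded lungs 4 and 5 only in the melanocyte sum. Dusp2 was also highest in treated lungs 1 and 5. In monocyte libraries the melanocyte sum was 6394, 6030, 5323 and 5100 CPM without treatment and 6211, 6614, 8871 and 9129 CPM with it. Treated monocyte libraries 3 and 4, the higher ones in Dusp4, were also higher in this sum. With the mean log2 melanocyte level as a covariate in lung, Dusp4 changed by −0.35 and Dusp2 by −0.19, and neither was called. Melanocyte sums did not overlap between treated and untreated lungs, so this fit can hardly separate treatment from tumour RNA. The lost calls therefore show no cause. With 5 libraries per group no correlation is given, and the part of tumour RNA in these changes was not tested.

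**Figure D2:**
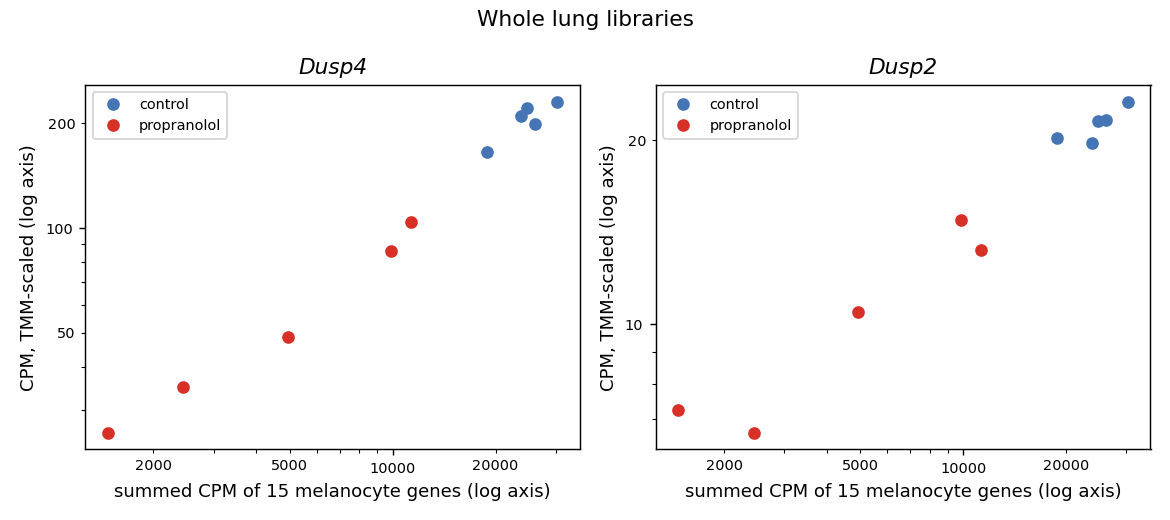
Whole lung libraries, with TMM-scaled CPM of Dusp4 (left) and Dusp2 (right) against the summed CPM of 15 melanocyte genes, both on log axes; every point is 1 library, blue for no treatment and red for propranolol. Treated lungs run from 1471 to 11290 CPM of melanocyte genes, below all untreated lungs, and Dusp4 runs from 25.8 to 104 CPM in the same order.

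Dusp5 (ENSMUSG00000034765), a nuclear phosphatase selective for ERK, has the promoter with the pair of CArG boxes. Untreated CD4 libraries held 34.1, 35.1, 33.8 and 34.98 CPM and treated ones 804, 792, 722 and 706 CPM. The untreated libraries were nearly equal, and the treated ones were 21.9-fold higher (log2 4.45 ± 0.07). Monocyte libraries held 135, 148, 139.9 and 143 CPM without treatment and 170, 173, 178 and 178 CPM with it, higher in all 4 (log2 0.31 ± 0.04). Whole lung had little Dusp5, 9.87 to 15.3 CPM without and 9.18 to 15.2 CPM with propranolol. The lung groups overlapped fully and no change was called (log2 0.08 ± 0.16).

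The cytoplasmic phosphatases of ERK are Dusp6 and Dusp7. Dusp6 (ENSMUSG00000019960), a product of sustained ERK activity, stood at 207 ± 6.34 CPM in untreated and 198 ± 8.54 CPM in treated monocyte libraries (SD, n = 4 each), with overlapping groups and no call (log2 −0.07 ± 0.04). CD4 libraries held 38.7, 37.7, 37.95 and 37.8 CPM without treatment and 55.1, 54.7, 55.9 and 56.04 CPM with it. Libraries within each group were nearly equal, and the rise (log2 0.54 ± 0.06) was 0.16 with library totals alone, still called. Whole lung held 145 to 165 CPM without treatment and 129 to 143 CPM with it. The lung groups did not overlap (log2 −0.22 ± 0.06, lower), but they did on CPM without TMM factors, where the call was lost (−0.03), as it was with a stricter filter (−0.08) and with lung and monocyte libraries in 1 fit (−0.11).

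Dusp7 (ENSMUSG00000053716), the other cytoplasmic ERK phosphatase, was the 1 member that was lower in treated CD4 libraries. Untreated CD4 libraries held 57.5, 50.2, 55.1 and 55.8 CPM and treated ones 14.2, 12.97, 15.7 and 13.3 CPM, 3.89-fold lower (log2 −1.96 ± 0.09). In the monocyte libraries it was lower as well, at 87.1, 91.2, 93.5 and 96.3 CPM without treatment and 66.8, 68.6, 68.5 and 71.1 CPM with it. Neither pair of groups overlapped (log2 −0.42 ± 0.04 in monocytes). Untreated lungs held 115, 112, 150.2, 136 and 144 CPM and treated lungs 159, 159, 161, 174 and 131 CPM. The lung groups overlapped, and the call (log2 0.26 ± 0.10, higher) was lost on leaving out any 1 of untreated lungs 1, 2 and 4 (0.19, 0.19 and 0.26) or of treated lungs 1, 2, 3 and 4 (0.25, 0.24, 0.24 and 0.21), and without the filter on low counts (0.18). Lung was the material richest in Dusp7 and treated CD4 cells the poorest.

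The phosphatases that prefer JNK and p38 are Dusp8, Dusp10 and Dusp16. Dusp8 (ENSMUSG00000037887), whose promoter holds 2 full CREs, was low in untreated CD4 libraries, at 2.88, 2.18, 1.82 and 1.79 CPM from 58 to 78 counts. Treated CD4 libraries held 16.3, 27.3, 18.2 and 20.1 CPM from 534 to 656 counts. All treated libraries were higher, by 9.60-fold (log2 3.26 ± 0.21). In the monocyte libraries Dusp8 went the other way, from 82.5, 87.2, 78.9 and 78.6 CPM to 60.3, 57.5, 57.4 and 56.2 CPM. The 4 treated monocyte libraries were all lower (log2 −0.50 ± 0.05). Lungs ranged widely in both groups, over 18 to 48.02 CPM and 25.1 to 44.4 CPM, and no change was called (log2 −0.03 ± 0.25).

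Dusp10 (ENSMUSG00000039384), known in T cells as a brake on JNK, was highest in treated CD4 libraries. Untreated CD4 libraries held 50.1, 46.4, 46.5 and 44.5 CPM and treated ones 449, 336, 362 and 372 CPM, 8.12-fold higher (log2 3.02 ± 0.09). Monocyte libraries held 16.2, 15.8, 22.6 and 21.1 CPM without treatment and 39.6, 35.7, 23.1 and 21.99 CPM with it. The groups overlapped because treated libraries 3 and 4 were close to untreated ones 3 and 4, while treated libraries 1 and 2 stood apart (log2 0.67 ± 0.19, higher). Without treated monocyte libraries 1 and 2 the change was 0.26 and was not called, and the call was also lost on leaving out untreated library 1 or 2 (0.59 each) or treated library 1 or 2 (0.50 and 0.57) alone. Lung libraries had 6.52 to 13.3 CPM and 6.92 to 9.14 CPM with overlap and no call (log2 −0.35 ± 0.19); without untreated lung 4 the change was −0.49 and was called lower.

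Dusp16 (ENSMUSG00000030203), a JNK and p38 phosphatase that shuttles between nucleus and cytoplasm, rose in CD4 libraries from 15.4, 12.8, 14.9 and 14.1 CPM to 68.4, 93.6, 81.9 and 84.3 CPM. This was 5.74-fold (log2 2.52 ± 0.11). Monocyte libraries ran over 110.1 to 134 CPM without treatment and 138 to 156 CPM with it, a small rise without overlap (log2 0.28 ± 0.06) that was 0.20 and not called without treated libraries 3 and 4. Lungs did not separate, at 52.7 to 66.2 CPM and 52.6 to 68.8 CPM (log2 0.01 ± 0.09).

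Dusp14 (ENSMUSG00000018648), a small atypical phosphatase without the MAP kinase binding domain of the others, had low levels throughout. CD4 libraries held 4.07, 2.18, 2.81 and 1.73 CPM (64 to 114 counts) without treatment and 28.2, 20.96, 23.97 and 25.2 CPM (504 to 1050 counts) with it, 9.36-fold higher (log2 3.23 ± 0.22). In lung it went from 9.53, 11.4, 15.5, 12.2 and 12.96 CPM to 16.6, 19.3, 25.2, 23.9 and 16.4 CPM. It was the 1 member of which every treated lung exceeded every untreated lung (log2 0.72 ± 0.16). Monocyte libraries showed no call, at 7.36 to 7.83 CPM and 6.65 to 7.87 CPM (log2 −0.06 ± 0.08).

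**Figure D3:**
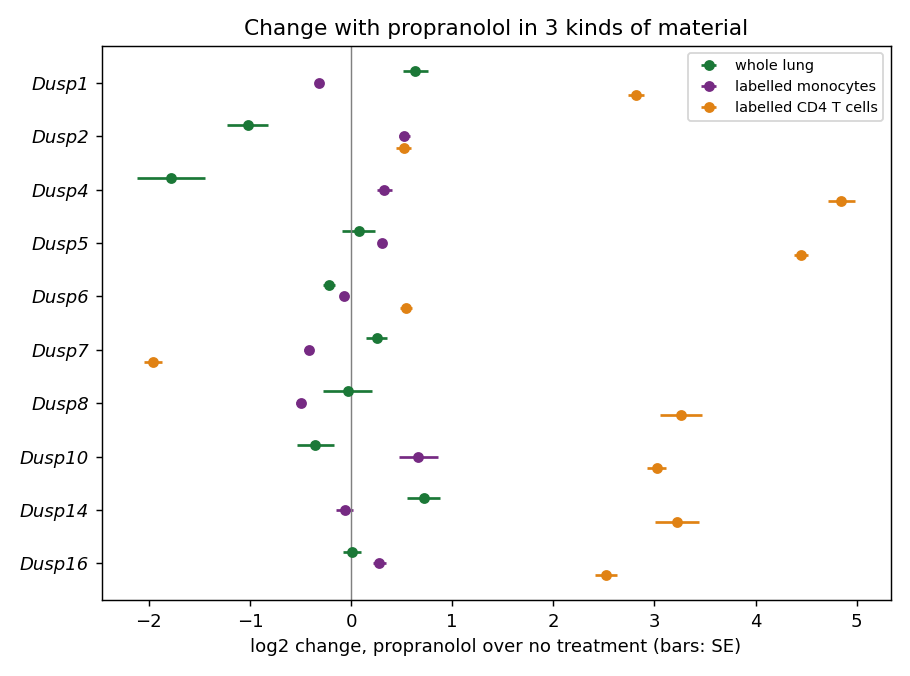
Log2 change with propranolol over no treatment for the 10 phosphatase genes in whole lung (green), libraries labelled monocytes (purple) and libraries labelled CD4 T cells (orange); points are fitted changes and bars their SE. In the CD4 libraries 9 genes lie right of 0, up to 4.85 for Dusp4, and Dusp7 lies at −1.96.

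Counted by overlap of the libraries, 9 members had every treated CD4 library above and 1 every treated library below the untreated ones. For monocytes these counts were 4 and 3 and for lung 1 and 3. Over all genes the groups were apart in 56.4% for CD4 (27.9% above, 28.5% below), in 31.6% for monocyte (14.9% above, 16.8% below) and in 52.5% for lung libraries (23.6% above, 28.9% below). Members that moved in opposite directions without overlap in 2 materials were Dusp1 and Dusp8 (monocyte and CD4), Dusp2 and Dusp4 (lung against both others) and Dusp6 (lung and CD4). These opposite directions were not tested as differences, and how many of all genes show them was not counted. With groups apart this often over all genes, nothing particular to the members is read from them.

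Divided by exon length, so that genes could be compared with each other, the members together made up 193 to 198 CPM per kb in untreated CD4 libraries and 847 to 917 in treated ones. Dusp2 alone was 57.0% of the untreated sum. In treated libraries Dusp5 led with 34.9%, followed by Dusp2 (18.2%), Dusp1 (15.3%), Dusp10 (14.3%) and Dusp4 (11.8%). The monocyte sums were 538 to 555 CPM per kb without treatment and 502 to 521 with it, and Dusp1 led both, with 54.5% and 46.6%. In lung the sum was 219 to 241 without treatment and 186 to 205 with it, and the leading gene changed from Dusp4 (32.3%) to Dusp7 (24.2%). Thus each untreated material had its own leading phosphatase per length: Dusp4 in lung, Dusp1 in monocytes and Dusp2 in CD4 cells.

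The lung values depended on how tumour RNA was handled. Scaling the lungs on resident lung cell markers in place of TMM moved the median of all genes to −0.71 log2, and 0 members were then higher and 8 lower. Under it Dusp1 (−0.11), Dusp5 (−0.68), Dusp7 (−0.47), Dusp14 (−0.01) and Dusp16 (−0.72) had the opposite sign. Dusp2 (−1.69), Dusp4 (−2.40) and Dusp6 (−0.95) were lower under both scalings. Resident marker scaling moved all genes down alike, so the place of a member relative to the median of all genes could hardly change. Nothing is read from that place. With the melanocyte covariate no member was called by edgeR, and 873 of all genes were higher and 848 lower, against 6614 and 6575 without it. Melanocyte levels separated treated from untreated lungs, so a loss of calls is built into this fit and shows no cause. With library totals as the only scaling the median of all genes moved to 0.21 in lung and to −0.43 in CD4 libraries, where 8 members were higher and 1 lower.

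**Figure D4:**
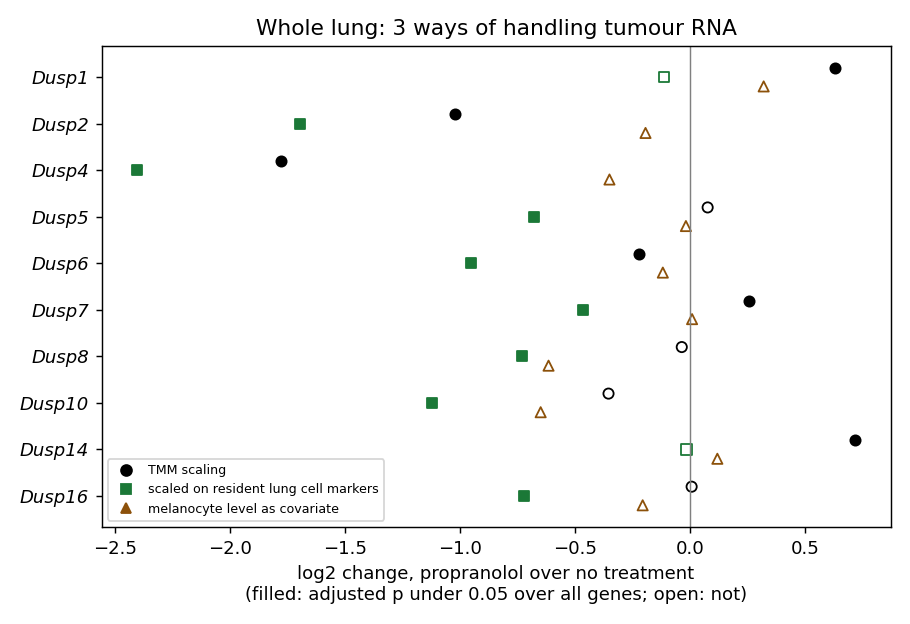
Whole lung log2 changes of the 10 phosphatase genes, propranolol over no treatment, with TMM scaling (black circles), with scaling on resident lung cell markers (green squares) and with the melanocyte level as a covariate (brown triangles); filled symbols passed an adjusted p of 0.05 over all genes and open ones did not. Dusp4 lies at −1.78, −2.40 and −0.35, and Dusp1 at 0.63, −0.11 and 0.32. Melanocyte level and treatment ran together, so open triangles show no cause.

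Other genes of the MAP kinase pathways, from lists of 7 roles, were read in the same fits, with adjusted p from edgeR's quasi-likelihood test and Benjamini-Hochberg adjustment. In CD4 libraries all 20 immediate early genes were higher (median log2 2.72), with TMM factors and with library totals alone. Nr4a1, an orphan nuclear receptor that marks antigen receptor signalling, rose from 82.7 ± 2.71 to 3504 ± 343 CPM (SD, n = 4 each; log2 5.41 ± 0.08, SE, adjusted p = 3.93e-12). Junb, a subunit of AP-1, rose from 159 ± 3.37 to 1708 ± 119 CPM (log2 3.42 ± 0.07, adjusted p = 1e-11), and Csrnp1 rose by 3.22 ± 0.06 (adjusted p = 6.73e-12). Of 16 measured genes of ERK feedback 11 were higher and 2 lower (median 1.54). Among them Spry1, an inhibitor of growth factor signalling to ERK, rose from 8.03 ± 1.22 to 83.3 ± 9.29 CPM (log2 3.38 ± 0.13, adjusted p = 1.1e-09). Errfi1, which inhibits the epidermal growth factor receptor, rose by 3.06 ± 0.12 (adjusted p = 1.18e-09), and Emp1 by 2.51 ± 0.11 (adjusted p = 4.94e-09).

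The kinases themselves went both ways in CD4 libraries. Of 11 MAP kinases 5 were higher and 2 lower (median 0.05), of 7 MAP2K 2 and 1 (0.07), of 20 MAP3K 11 and 6 (0.24) and of 9 kinases activated by MAP kinases 4 and 3 (0.25). Single kinases changed by about as much as some members, such as Map3k14 at 2.08 ± 0.08 (adjusted p = 1.05e-09) and Map3k12 at −2.04 ± 0.24 (adjusted p = 1.84e-05). With library totals alone the medians of these 4 lists turned negative. Map2k3, an activator of p38, rose from 56.8 ± 3.82 to 235 ± 28.4 CPM (log2 2.05 ± 0.09, adjusted p = 4.1e-09), while Map2k6, the other main activator of p38, fell from 11.1 ± 1.79 to 3.95 ± 0.394 CPM (log2 −1.49 ± 0.16, adjusted p = 7.31e-06). Mapk3, an ERK gene, changed by −0.51 ± 0.09 (lower, adjusted p = 0.000444). Mapkapk2, a kinase activated by p38, rose by 1.93 ± 0.07 (adjusted p = 7e-10). Of the 13 measured dual-specificity phosphatases outside the 10 members, 3 were higher and 4 lower (median 0.01, or −0.37 with library totals). Dusp3 rose from 4.51 ± 0.434 to 17.4 ± 1.14 CPM (log2 1.95 ± 0.12, adjusted p = 7.17e-08) and Dusp23 fell from 4.13 ± 0.726 to 1.82 ± 0.452 CPM (log2 −1.17 ± 0.24, adjusted p = 0.0013).

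In the monocyte libraries the medians of the same 7 lists lay between −0.17 and 0.11 log2. Over all genes 14.3% were higher and 16.1% lower there. Of 20 immediate early genes 3 were higher and 5 lower (median −0.02), and of 18 ERK feedback genes 1 and 6 (−0.17). Klf4, a transcription factor, fell from 456 ± 13.5 to 267 ± 9.48 CPM (log2 −0.77 ± 0.04, adjusted p = 4.7e-07). These libraries also held endothelial and epithelial RNA, so the cells behind this fall cannot be told. Ccnd1, the cyclin that ERK signalling induces, fell from 229.7 ± 15.2 to 145 ± 14.6 CPM (log2 −0.66 ± 0.07, adjusted p = 5.72e-05). Nr4a1 stood at 740 ± 39.0 and 764 ± 27.8 CPM (SD, n = 4 each) and was not called there (adjusted p = 0.489). Of the other dual-specificity phosphatases 2 of 16 were lower and 0 higher, with Dusp3 at −0.48 ± 0.07 (adjusted p = 0.000281), the reverse of its direction in CD4 libraries. MAP kinases had 0 higher and 4 lower of 13, MAP2K 2 and 0 of 7, MAP3K 3 and 7 of 20, and kinases activated by MAP kinases 4 and 1 of 10.

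In whole lung 6 of 7 MAP2K genes were lower and 0 higher (median −0.47), where 35.3% of all genes were lower, and with the melanocyte covariate 1 was lower and 0 higher (median −0.24). Map2k1, an activator of ERK, fell from 178 ± 18.04 to 93.7 ± 13.8 CPM (SD, n = 5 each, log2 −0.92 ± 0.11, adjusted p = 0.000105). With the melanocyte covariate its change was −0.52 and was still called (adjusted p = 0.0286). MAP kinases were 3 higher and 6 lower of 14, MAP3K 9 and 6 of 20, and kinases activated by MAP kinases 3 and 5 of 10. ERK feedback genes were 5 and 5 of 17, with Phlda1 at −1.23 ± 0.15 (adjusted p = 0.000121) and Etv5, which is also on the alveolar epithelium list, at 0.89 ± 0.15 (adjusted p = 0.000415). Immediate early genes were 6 higher and 4 lower of 20, and other dual-specificity phosphatases 5 and 4 of 15. With the melanocyte covariate 0 genes of the ERK feedback, immediate early, MAP kinase and other phosphatase lists were higher, and 1, 0, 1 and 1 were lower. Calls lost with this covariate, which ran with treatment, show no cause. Resident marker scaling, which moved all genes down alike (1893 higher and 10737 lower in all), left 0 of these 4 lists' genes higher and 11, 14, 11 and 10 lower.

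**Figure D5:**
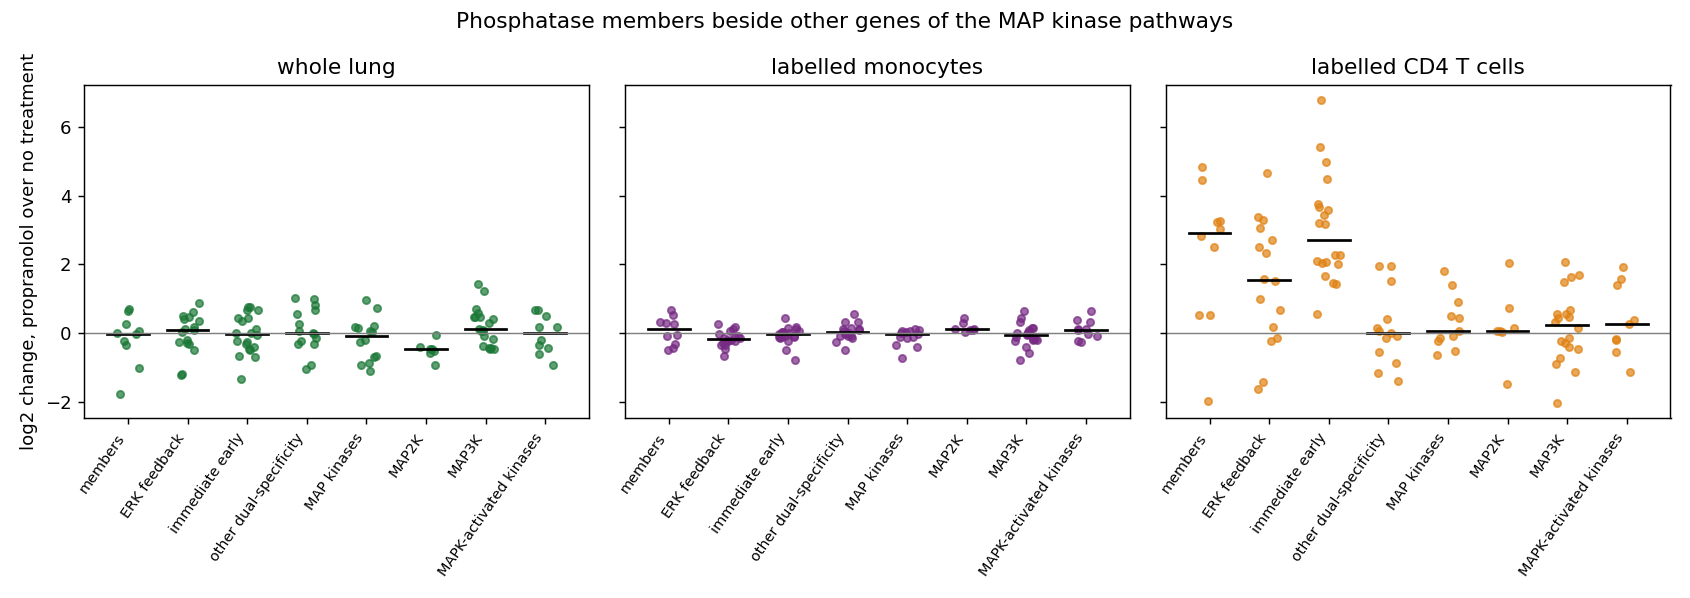
Log2 change with propranolol over no treatment for each measured gene (points) of the 10 phosphatase members and of 7 lists of MAP kinase pathway genes, in whole lung, libraries labelled monocytes and libraries labelled CD4 T cells; black bars are list medians. In the CD4 panel the members (median 2.92), the immediate early genes (2.72) and the ERK feedback genes (1.54) sit above 0, while the MAP kinases have a median of 0.05.

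Markers of several other cell types, but not of all, rose beside the 9 members in CD4 libraries. Over all genes 30.1% were higher and 29.9% lower there. All 11 neutrophil genes were higher, with a summed level of 200 to 288 CPM without treatment and 1362 to 1917 CPM with propranolol. Of 13 monocyte genes, Nr4a1 among them, 10 were higher and 0 lower (summed 998 to 1150 and 4988 to 5589 CPM), and of 7 dendritic cell genes 4 and 0 (233 to 244 and 1254 to 1352 CPM). All 12 B cell genes were higher too (8568 to 9874 and 11110 to 12560 CPM). So were 13 of 16 T cell genes with 0 lower (4355 to 4480 and 7030 to 7817 CPM). Of 12 endothelial genes 1 was higher and 6 lower, and of 7 melanocyte genes 0 and 4. Of 8 plasma cell genes 1 was higher and 2 lower, and of 10 cytotoxic genes 5 and 2. Fibroblast genes were 6 and 0 of 8, alveolar macrophage genes 3 and 0 of 7 and alveolar epithelial genes 3 and 2 of 7. Airway genes were 2 and 0 of 2, and smooth muscle and pericyte genes 0 and 0 of 4. With library totals alone the T cell genes were 6 higher and 5 lower, the monocyte genes 9 and 2, the dendritic cell genes 2 and 0, the B cell genes 11 and 0 and the neutrophil genes 11 and 0. Sftpc of alveolar epithelium was at 0 in all CD4 libraries, and 6 of 15 melanocyte genes, Tyrp1, Tyr, Oca2, Dct, Slc45a2 and Sox10, were at 0. Mean Dusp2, Dusp4, Dusp5 and Dusp10 in treated CD4 libraries exceeded those of every lung and monocyte group, with and without TMM factors, whereas mean Dusp1, Dusp8 and Dusp16 were highest in monocyte groups with TMM factors. The lung and monocyte libraries were themselves mixed, so this order of means does not show which cells held the transcripts. The part of these other cells in the change of the members was not tested.

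Markers of other cells also moved in the monocyte libraries, beside changes of the members of at most 0.67 log2. Of 16 endothelial genes 15 were lower and 0 higher (summed 10600 to 11270 CPM without treatment, 7895 to 8052 CPM with it), and of 13 fibroblast genes 11 were lower and 2 higher (3645 to 4110 and 2248 to 2345 CPM). Alveolar epithelium had 11 lower and 1 higher of 15 genes (5274 to 5381 and 4572 to 4948 CPM), and airway epithelium 8 lower and 0 higher of 9 (4785 to 6297 and 4099 to 4732 CPM). Melanocyte genes were 11 higher and 1 lower of 15 (5100 to 6394 and 6211 to 9129 CPM). All 10 genes of cytotoxic and natural killer cells were higher (35.1 to 38.8 and 100.2 to 143 CPM, median log2 1.99). So were all 12 B cell genes (379 to 640.2 and 901 to 1010 CPM, median 1.03), the direction of Dusp2, Dusp4, Dusp5, Dusp10 and Dusp16. T cell genes were 2 higher and 0 lower of 16, dendritic cell genes 3 and 3 of 7 and neutrophil genes 0 and 4 of 11. Monocyte genes were 4 and 1 of 13, alveolar macrophage genes 5 and 1 of 10 and plasma cell genes 3 and 1 of 7. Smooth muscle and pericyte genes were 0 and 4 of 10. Over all genes in these libraries 14.3% were higher and 16.1% lower. In lung under TMM scaling, where 35.5% of all genes were higher and 35.3% lower, many lists went in the direction of Dusp1, Dusp7 and Dusp14. Fibroblast genes were 5 higher and 3 lower of 13, airway genes 4 and 3 of 9 and melanocyte genes 1 and 14 of 15. All 12 B cell genes were higher (86.02 to 178 and 399.7 to 579 CPM, median log2 2.04), all 16 T cell genes (51.2 to 89.9 and 111 to 182 CPM, median 1.32) and all 10 cytotoxic genes (20.1 to 33.5 and 52.3 to 105 CPM, median 1.51). Neutrophil genes were 8 higher and 1 lower of 10, monocyte genes 9 and 1 of 13, alveolar epithelial genes 14 and 0 of 15 and endothelial genes 14 and 0 of 16 (2620 to 4681 and 4692 to 7638 CPM). None of the marker genes was at 0 in these lists in lung and monocytes, and their part in the members' changes was not tested.

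The genes whose log2 CPM followed each member most closely were found among 13936 genes over the 26 libraries, which fall into 6 groups and share library depth, so Pearson's r is a description. Dusp1 went with Nlrp3 (0.993) and Il1b (0.989), inflammasome and interleukin genes of myeloid cells, and with Slc2a6 (0.986). Dusp5 went with Tgfb1 (0.993), Bcl10 (0.988) and Mxd1 (0.985). Dusp8 went with Klf4 (0.979), Errfi1 (0.978) and Cxcl16 (0.974), and Dusp16 with Ptgs2 (0.979), Il12b (0.97) and Ehd1 (0.969). Dusp10 had Chd1 (0.985), Map3k1 (0.984) and Stat5b (0.983) beside it, and Dusp2 had Ppp4c (0.979), Capza1 (0.978) and Actr3 (0.968). For Dusp6 the nearest genes were Has1 (0.993), Grrp1 (0.992) and Ntrk2 (0.992), for Dusp7 Bace1, Slc39a13 and Tsc2 (0.985 each), for Dusp4 Bend4 (0.966), Mex3c (0.958) and Fbxw11 (0.951), and for Dusp14 Acsl4 (0.952), Map9 (0.945) and Nr1d2 (0.94). Within the family the most alike pair was Dusp8 and Dusp16 (r = 0.931), and the most opposed pair Dusp7 and Dusp10 (r = −0.968).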

How the data were processed

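Raw gene counts, whole numbers without normalization, were deposited in 2 tables, 1 with the lung and monocyte libraries and 1 with the CD4 libraries. Per the submitters' processing notes the tools were STAR 2.7.9, featureCounts and Subread 2.0.3 on build GRCm39. Strand use in counting was not given in the sources used here. Overlapping or antisense genes are therefore uncertain. Symbols matched 52083 of 55416 gene IDs.

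Each comparison used only its own libraries, grouped by the labels: filterByExpr (minimum count 10), TMM, and edgeR 4.0.16 quasi-likelihood tests (R 4.3.3) with Benjamini-Hochberg adjustment over all genes at 0.05. The members, the pathway and marker lists and the tests were chosen with earlier results of these data known. Other pathway genes named are up to 3 called genes per list and direction with the smallest p and a mean of at least 1 CPM, of which not all are printed; the likeness genes are the 3 with the highest Pearson correlation of log2 CPM (prior count 2). Genes named to compare materials (Nr4a1 and Dusp3 across materials, Mapk3) fall under those rules in at least 1 of them. Some genes on the lists are not reported here. Levels per kb used union exon lengths of GENCODE M21. Promoters came from RefSeq (GRCm38.p6).

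Alternatives were the size factors and the test of DESeq2 1.42.0, limma-voom (limma 3.58.1), no filter, a stricter filter (mean of 5 CPM), library totals, resident marker scaling and a melanocyte covariate in lung, lung and monocytes in 1 fit, a replicate block, and each library left out. Summing or leaving out the close monocyte libraries was chosen after seeing the data. The scripts were tested on simulated counts. Each library was counted as 1 sample. No pair agreed within sampling noise by chi-square, but repeat libraries of 1 sample can differ by more than that noise too, so the check does not show that they were separate samples. Monocyte pairs 1 and 2, and 3 and 4, were the closest of their groups (3.52 to 5.22 per degree of freedom, other pairs 12.2 to 35.4). The untreated CD4 pairs were about as close, at 4.86 to 7.03, and treated CD4 libraries 3 and 4 stood at 5.47. Other treated CD4 pairs ran from 37.8 to 139.5. Close CD4 libraries were not summed, so their SE may measure technical spread. The counts behind each member give its precision, and library totals run from 17625672 to 48306925.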

Additional observations from a re-analysis of the deposited data

Results flagged for a closer look

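In 5 members every treated library of 1 material moved one way and every treated library of another the opposite way, relative to the untreated libraries. These differences between materials were not tested, and each is the log2 change in the first material minus that in the second. For Dusp1 it was −3.14 between monocyte and CD4 libraries, and for Dusp8 it was −3.76 between the same materials. For Dusp2 it was −1.55 between lung and monocyte libraries and −1.54 between lung and CD4 libraries. For Dusp4 it was −2.11 between lung and monocyte libraries and −6.63 between lung and CD4 libraries. For Dusp6 it was −0.76 between lung and CD4 libraries. Without TMM factors the groups of Dusp6 in lung and of Dusp2 in CD4 libraries overlapped. How many of all genes moved in opposite directions in this way was not counted. Over all genes the groups were apart in 52.5% for lung, 31.6% for monocyte and 56.4% for CD4 libraries, so nothing particular to the members is read here. A test for a library far from the others, run on the 60 groups of 4 or 5 values, singled out none.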

How the results depend on the processing

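The CD4 counts of members (9 higher, 1 lower) held under every alternative run except library totals alone (8 and 1), without Dusp2 (0.13). In lung, resident marker scaling gave 0 higher and 8 lower, with Dusp1 at −0.11, Dusp5 at −0.68, Dusp7 at −0.47, Dusp14 at −0.014 and Dusp16 at −0.72, all of opposite sign. It also turned the split of all genes from 6614 higher and 6575 lower to 1893 and 10737, and library totals alone turned it to 8268 and 4770. The melanocyte covariate, which ran with treatment across the lungs, left 0 higher and 0 lower, and the cause was not tested. In the monocyte libraries 1 fit with the lung libraries left 1 higher and 1 lower; summing the close libraries, chosen after seeing the data, left 1 higher and 2 lower with fewer samples. Over all monocyte library genes these gave 819 higher and 1250 lower, and 409 and 968, against 2614 and 2939, and library totals alone gave 3644 and 2424. In CD4 libraries library totals alone gave 2886 higher and 8064 lower over all genes, against 4982 and 4947.

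Leaving out 1 library at a time gave 2 to 3 members higher and 3 to 4 lower in lung, 4 to 5 and 3 to 3 in monocyte, and 9 to 9 and 1 to 1 in CD4 libraries. The replicate numbers did not pair the libraries (correlation of same-numbered deviations −0.05 to 0.37 in lung, −0.31 to −0.13 in monocyte and −0.02 to 0.04 in CD4 libraries), and not every library correlated best with its own number. A replicate block gave 2 higher and 3 lower in lung, 4 and 3 in monocyte and 9 and 1 in CD4 libraries; over all genes in monocyte libraries it gave 1454 higher and 2090 lower. For single members, 171 values in lung, 171 in monocyte and 149 in CD4 libraries kept their side of the threshold. Called values among these kept their direction. Values called in neither fit moved by less than the SD between libraries and could change sign. In lung 18 lost their call, 3 gained one, 3 moved and 5 reversed, in monocyte libraries 18 lost their call and 1 moved, and in CD4 libraries 1 lost its call. Counts behind a member were lowest for Dusp8 (58 to 78) and Dusp14 (64 to 114) in untreated CD4 libraries, where precision is therefore least.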
